A study of Mus musculus with 4 samples.

Results

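Replication-dependent histone genes encode the linker histone H1 and the core histones H2A, H2B, H3 and H4 that package new DNA during S phase. They were taken as the rows of the deposited table whose Ensembl identifier carries a mouse symbol beginning Hist1h, Hist2h, Hist3h or Hist4h, and 64 of 19840 rows met this rule. They comprise 6 H1, 18 H2A, 16 H2B, 11 H3 and 13 H4 genes. Of these, 53 belong to the Hist1 cluster on chromosome 13, 8 to Hist2 on chromosome 3, 2 to Hist3 on chromosome 11 and 1 to Hist4 on chromosome 6. A further 6 annotated genes of the rule were not among the rows analysed. RNA came from mouse embryonic stem cells of naive ground state, grown in 2i/LIF (2 kinase inhibitors with leukaemia inhibitory factor) and infected with lentivirus carrying an shRNA to Lncenc1, a long noncoding RNA (shLincenc1), or a control shRNA (shCtrl), then selected with puromycin for 2 days. Each group had 2 libraries, and the labels do not say that these came from separate cultures, so p-values measure a spread that may be technical. The growth protocol names the lines E14TG2a and R1 and the treatment protocol names 2 hairpins per target, and neither is tied to a library.

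The deposited table gives 1 comparison and does not say which group is the numerator. The group in which Lncenc1 was lower is called Lncenc1-low (libraries low-a and low-b) and the other Lncenc1-high (libraries high-a and high-b). If the hairpin lowered its target, Lncenc1-low is the shLincenc1 group, and the knockdown is then assumed and not checked. Every log2 fold change below is Lncenc1-high over Lncenc1-low, so a negative one means higher in Lncenc1-low. Reads per library were recovered as whole counts from the deposited means for 19818 rows, all 64 histone genes included, and are given as normalized reads, that is, divided by the library's size factor.

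Replication-dependent histone mRNAs are the main animal mRNAs that end in a conserved stem-loop rather than a poly(A) tail. The stem-loop is bound by the stem-loop binding protein SLBP, and the end is cut with the help of the U7 small nuclear ribonucleoprotein. Their transcription depends on the coactivator NPAT, and their levels rise and fall with DNA synthesis. Embryonic stem cells have a short G1 phase and spend much of their cycle in S phase. The libraries were depleted of ribosomal RNA and not selected on poly(A), so mRNAs without a tail could be sequenced.

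The stem-loop is the feature that defines these mRNAs. A match of 16 bases, with a perfect stem of the pattern that begins GG and ends CC, was found in annotated transcripts of 42 of the 64 genes, and in 14 other genes among 55450 with a transcript. It was found in 4 of 6 H1, 10 of 18 H2A, 8 of 16 H2B, 8 of 11 H3 and 12 of 13 H4 genes. The remaining 22 genes had no match, which says only that these letters are not in the annotated transcripts. The gene with the most reads of each type, among those with a match, is given here, from GENCODE vM21 transcripts, with the stem-loop in capitals and 5 bases on each side.
Hist1h1d: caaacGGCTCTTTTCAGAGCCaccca
Hist2h2aa2: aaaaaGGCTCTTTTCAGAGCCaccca
Hist1h2bp: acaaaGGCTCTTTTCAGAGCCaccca
Hist1h3g: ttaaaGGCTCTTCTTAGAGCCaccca
Hist4h4: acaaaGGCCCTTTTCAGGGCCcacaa
The annotated transcript goes on after the stem-loop for 35 bases in Hist2h2aa2, 38 in Hist1h2bp and 47 in Hist1h3g. It goes on for 4884 bases in Hist1h1d and 2445 in Hist4h4, so in these the match is not near the annotated end. The stem itself differed by type. All 30 matches in H1, H2A, H2B and H3 genes began GGCTCT, and all 12 matches in H4 genes began GGCCCT or GGTCCT.

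Promoter windows from RefSeq (GRCm38.p6, 300 bases each) were matched for 58 genes with 59 windows. Each motif was searched as exact letters on both strands, and none is contained in another. The TATA box, TATAAA, was present in 57.6% of the histone windows and 13.6% of all 32851 windows. The CCAAT box was present in 84.7% of the histone windows and 37.4% of all, in every H1, H2A, H2B and H3 window but in only 3 of 12 H4 windows. The octamer, ATTTGCAT, was present in 7 of 17 H2A and 6 of 15 H2B windows and in no H1, H3 or H4 window, against 1.74% of all windows. The motif AAACACA, known from H1 promoters, was present in 5 of 6 H1 windows, against 7.18% of all windows. It was also present in 2 of 17 H2A and 1 of 15 H2B windows and in no H3 or H4 window. The 110 bases before the start of the gene with the most reads in 4 types are shown with these motifs in capitals, as examples of windows with and without these boxes.
Hist1h1a (chr13:23763558-23763667, + strand): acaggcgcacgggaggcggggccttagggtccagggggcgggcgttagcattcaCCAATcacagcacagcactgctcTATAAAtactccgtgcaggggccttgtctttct
Hist1h2bp (chr13:21787378-21787487, + strand): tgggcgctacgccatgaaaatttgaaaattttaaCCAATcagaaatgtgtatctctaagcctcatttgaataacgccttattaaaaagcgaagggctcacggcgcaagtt
Hist1h3h (chr13:21717518-21717627, + strand): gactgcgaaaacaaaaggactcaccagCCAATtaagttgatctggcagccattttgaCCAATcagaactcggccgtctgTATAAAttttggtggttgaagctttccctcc
Hist4h4 (chr6:136804432-136804541, - strand): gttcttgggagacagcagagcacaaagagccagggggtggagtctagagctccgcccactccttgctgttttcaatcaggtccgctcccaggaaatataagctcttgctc
Hist4h4 had none of the 4 motifs in the stretch shown.

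The recovered reads summed to 11233541 in low-a, 10616817 in low-b, 26720127 in high-a and 11082722 in high-b. Lncenc1 had 2126 and 2121 normalized reads in low-a and low-b, against 6400 and 7250 in high-a and high-b. All 10 markers of naive embryonic stem cells were tested, and the authors' deposited table called 0, against 1.53% of all 14070 tested genes. At an unadjusted p under 0.05 it lists 3 of the 10, against 8.82% of all tested genes, and the median log2 fold change of the list was 0.30. By the authors' deposited table, these 3 were the pluripotency factors Nanog and Tbx3, with log2 fold changes of 0.41 ± 0.20 and 0.48 ± 0.23, and the naive marker Dppa3 with -0.98 ± 0.44 (SE each). To look for feeder cells, 10 fibroblast markers were taken, of which 7 had a row and 4 an adjusted p, and 0 was called. Their summed normalized reads were 10690 and 9766 in low-a and low-b and 13021 and 12372 in high-a and high-b, nearly all from Fn1, which stem cells also express. For Fn1 the authors' deposited table lists a log2 fold change of 0.34 ± 0.18 (SE), and for the other 6 with a row negative values. The median over the 4 tested markers, Fn1 included, was -0.68. Among these, Fbn1, a microfibril protein, was the 1 marker at an unadjusted DESeq2 p under 0.05 in the authors' deposited table, with 324 and 174 normalized reads in low-a and low-b, against 140 and 110 in high-a and high-b, and a log2 fold change of -0.99 ± 0.41 (SE). The collagens Col1a1, Col3a1 and Col6a1 had at most 11.1 normalized reads in any library. The part of these markers in the histone results was not tested.

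None of the histone genes passed the authors' test. An adjusted p was given for 61 of the 64, and at an adjusted p under 0.05 the authors' deposited table called 0 of them, against 1.53% of all tested genes. At an unadjusted p under 0.05 it lists 3 of the 61, against 8.82% of all tested genes. The lowest adjusted p of a histone gene in the authors' deposited table was 0.535. The median log2 fold change of the 61 genes was -0.19 in the authors' deposited table, against -0.01 for all tested genes. By type, the median in the authors' deposited table was -0.07 for H1, -0.33 for H2A, -0.24 for H2B, -0.02 for H3 and -0.14 for H4. A negative fold change was given for 45 of the 61, against 50.6% of all tested genes, and these genes share libraries, so their signs are not independent. In 9 of the 61 both Lncenc1-low libraries lay above both Lncenc1-high libraries, against 20.7% of all tested genes with counts. In 1, Hist1h4a (named after its values were seen), both Lncenc1-high libraries lay above, against 20.6% of all. Limma voom on the recovered counts also called 0 histone genes at an adjusted p under 0.05, against 0.0427% of all 14043 genes, and 2 had an unadjusted p under 0.05, against 10.2% of all.

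Together the histone genes were a small part of the reads, and the libraries of one group differed more than the groups did. Their share of recovered reads was 1.06% in low-a (95% Wilson interval 1.05% to 1.07%) and 0.936% in low-b (0.930% to 0.941%), against 0.710% in high-a (0.707% to 0.713%) and 1.08% in high-b (1.07% to 1.09%). The groups overlapped, with high-b the highest and high-a the lowest of the 4 libraries. The group means were 0.998% ± 0.0878 in Lncenc1-low and 0.895% ± 0.262 in Lncenc1-high (SD, n = 2 each), with an exact two-sided permutation p of 1, where 0.333 is the smallest that 2 against 2 libraries allow. The intervals cover counting error only. In bulk RNA, fewer cells in S phase and less histone RNA per cell cannot be told apart. The 22 rows without recovered counts, which hold 12.0% of the summed deposited means, are not in these totals.

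**Figure D1:**
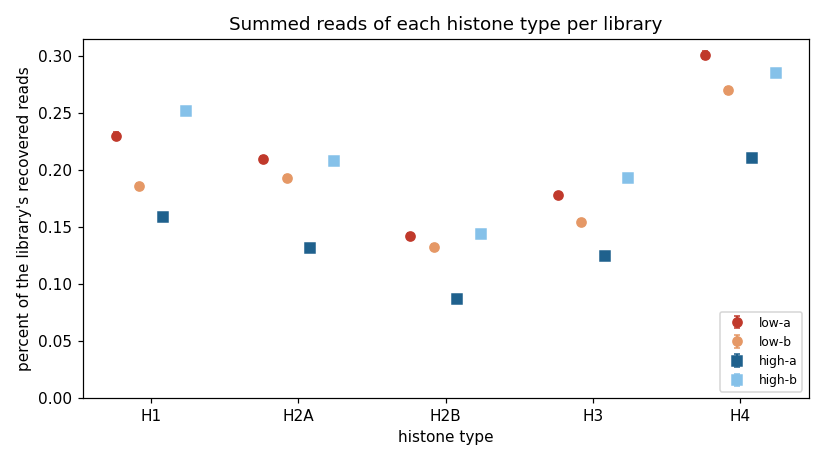
Percent of each library's recovered reads (y axis, from 0) summed over each histone type (x axis); circles are low-a and low-b, squares high-a and high-b, and error bars are 95% Wilson intervals, mostly smaller than the symbols. High-a is the lowest library for all 5 types, and high-b and low-a are the upper pair.

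High-a was the lowest library for every type. H4 took the most reads, with 0.301% and 0.270% in low-a and low-b and 0.210% and 0.285% in high-a and high-b. H1 had 0.230% and 0.186% in low-a and low-b, against 0.158% and 0.251% in high-a and high-b. H2A had 0.210% and 0.193% in low-a and low-b, against 0.131% and 0.208% in high-a and high-b. H3 had 0.177% and 0.154% in low-a and low-b, against 0.124% and 0.193% in high-a and high-b. H2B had the fewest reads, with 0.142% and 0.132% in low-a and low-b and 0.0863% and 0.143% in high-a and high-b. The share in high-b was 1.36 times that in high-a for H4 and 1.55 to 1.66 times for the other 4 types, while low-a was 1.07 to 1.24 times low-b over the 5 types.

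The difference between high-b and high-a ran through nearly the whole family. Among the 53 histone genes whose mean reached 50 normalized reads, 51 were higher in high-b than in high-a, all but Hist1h2aa and Hist1h4b. The median log2 ratio of high-b to high-a was 0.62 over these genes, against 0.00 over all 11011 tested genes of that mean. High-b was at least 1.2-fold above high-a for 46 of the 53, against 15.7% of all these genes. Low-a was at least 1.2-fold above low-b for 25 of the 53, against 26.3% of all, with a median log2 ratio of 0.23 against 0.00. For 44 of the 53 the size of the deposited log2 fold change was smaller than the log2 ratio of high-b to high-a. This count was not made over all genes. It sets a contrast of 2 against 2 libraries beside a ratio of single libraries, taken in the direction seen in these data.

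**Figure D2:**
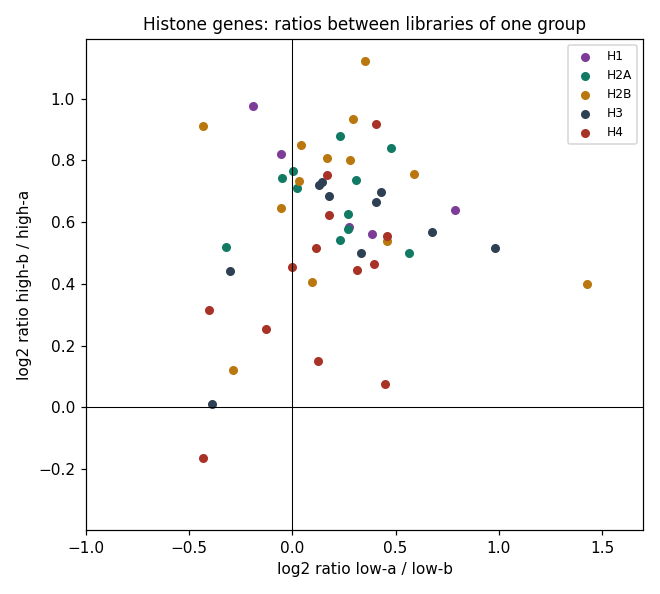
Each point is a histone gene whose mean reached 50 normalized reads, coloured by type; the x axis is the log2 ratio of low-a to low-b and the y axis the log2 ratio of high-b to high-a. Nearly all points lie above 0 on the y axis, and Hist1h2aa lies off the x axis, at 4.48.

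In other gene groups the same ratio had a median near 0. The median log2 ratio of high-b to high-a was -0.04 for 32 S phase genes, -0.07 for 14 genes of G2 and M phase, -0.09 for 10 replication-independent histone variants and 0.04 for 33 other single-exon genes under 800 bases. Between low-a and low-b the same medians were 0.26, 0.17, -0.02 and 0.23. The 13 small RNAs without a poly(A) tail that were listed for comparison had no row. High-a was also the deepest library, with 26720127 recovered reads, and the part of depth or library preparation in the difference was not tested.

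The fold changes depended on which Lncenc1-high library was used. A refit of the comparison without high-b, in which high-a is assumed to vary like the other libraries, gave a median log2 fold change of -0.48 for the 61 histone genes, with 19 of them at an unadjusted p under 0.05, against 5.83% of all genes, and 0 at an adjusted p under 0.05. The refit without high-a gave a median of 0.09, with 1 gene at an unadjusted p under 0.05, against 6.11% of all genes. The direction of the median turned with the library left out.

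**Figure D3:**
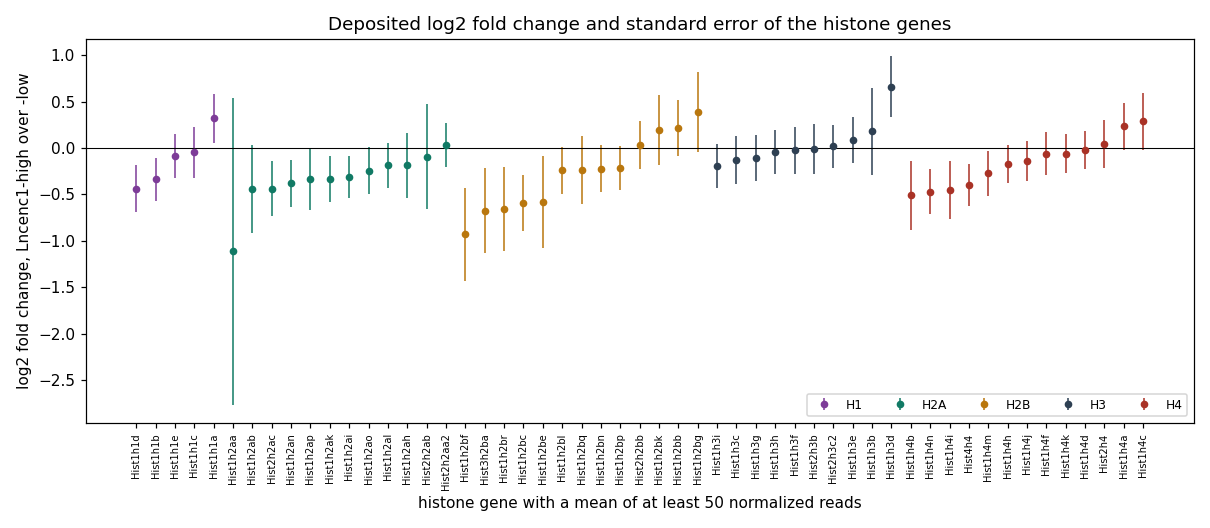
Log2 fold change (y axis, Lncenc1-high over Lncenc1-low) with its standard error from the authors' deposited table for each histone gene whose mean reached 50 normalized reads (x axis), ordered by type and value. Most points lie below 0, and none was called.

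The genes of linker histone H1, which binds the DNA between nucleosomes, include the gene with the most normalized reads of the family. Hist1h1a, which encodes the linker histone H1.1, had 14619 and 8459 normalized reads in low-a and low-b, against 11261 and 17533 in high-a and high-b. The groups overlapped, with high-b the highest and low-b the lowest. Its log2 fold change in the authors' deposited table was 0.32 ± 0.27 (SE; DESeq2 adjusted p 0.912), and without low-b or without high-b the sign turned. Hist1h1b (H1.5) had 6019 and 4602 normalized reads in low-a and low-b, against 3393 and 5012 in high-a and high-b. The authors' deposited table gives it -0.34 ± 0.23 on the log2 scale (SE; DESeq2 adjusted p 0.801). Hist1h1d (H1.3) had 4834 and 5027 normalized reads in low-a and low-b, against 2633 and 4654 in high-a and high-b, with no overlap of the groups. The authors' deposited table gives -0.44 ± 0.25 on the log2 scale (SE; DESeq2 adjusted p 0.679), not past the threshold.

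A share of the reads of all 6 H1 genes does not move when those genes differ alike between libraries. On that scale, chosen after the data were seen, Hist1h1a made up 46.0% of H1 reads in low-a (95% Wilson interval 45.3% to 46.6%) and 34.7% in low-b (34.0% to 35.3%), against 51.9% in high-a (51.4% to 52.4%) and 50.2% in high-b (49.6% to 50.8%). Both Lncenc1-high libraries lay above both Lncenc1-low libraries, which themselves lay 11.3 percentage points apart. Hist1h1b made up 18.9% of H1 reads in both low-a and low-b, against 15.6% and 14.4% in high-a and high-b. Hist1h1d made up 15.2% and 20.6% in low-a and low-b, against 12.1% and 13.3% in high-a and high-b. These shares sum to 100%, so a higher share of Hist1h1a lowers the others. Of the H1 reads without Hist1h1a, a scale also added after the data were seen, Hist1h1b made up 35.0% and 28.9% in low-a and low-b, against 32.5% and 28.8% in high-a and high-b, and the groups overlapped. Hist1h1d made up 28.1% and 31.5% of them in low-a and low-b, against 25.2% and 26.8% in high-a and high-b, with no overlap. Over the whole family, the groups did not overlap in their share of the type's reads for 30 of the 64 genes, 15 in each direction. The scale exists only within a histone type, so no share over all genes stands beside this count. A lack of overlap has an exact two-sided permutation p of 0.333 with 2 against 2 libraries, and shares within a type are not independent. The 30 include genes with few reads, such as Hist3h2a, with 1 and 1 reads in low-a and low-b, against 6 and 3 in high-a and high-b.

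**Figure D4:**
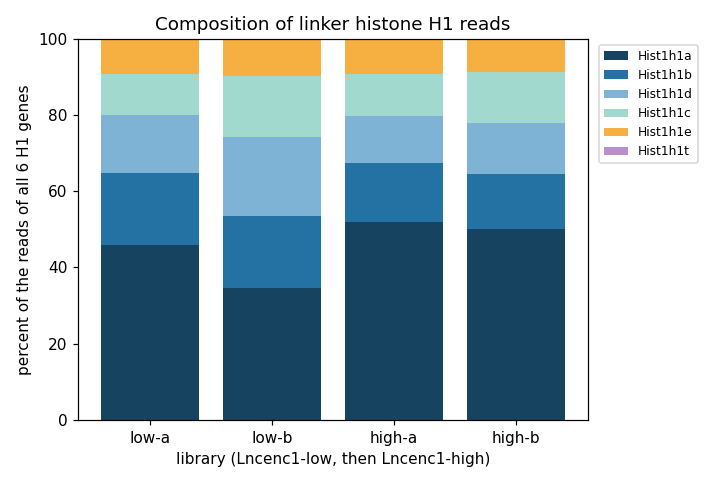
Stacked bars give the percent of the reads of all 6 H1 genes (y axis) held by each gene in each library (x axis, low-a, low-b, high-a, high-b). Hist1h1a holds 34.7% in low-b and 51.9% in high-a, and Hist1h1t is too low to be seen.

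H2A genes had the lowest median fold change of the 5 types, and no member passed the test. H2A pairs with H2B in the dimers that flank the H3-H4 tetramer of the nucleosome. Hist2h2aa2 had 7013 and 7256 normalized reads in low-a and low-b, against 5449 and 9115 in high-a and high-b, with a log2 fold change of 0.03 ± 0.24 (SE; DESeq2 adjusted p 0.999) in the authors' deposited table. None of its 50-base stretches is unique among annotated transcripts, so a read of 50 bases from it would match another annotated gene as well. Hist1h2ai had 8485 and 7043 normalized reads in low-a and low-b, against 4915 and 7580 in high-a and high-b. Its log2 fold change was -0.31 ± 0.23 (SE; DESeq2 adjusted p 0.838) in the authors' deposited table, and 9.88% of its 50-base stretches are unique. Hist1h2al, annotated as a processed pseudogene, had 3070 and 3061 normalized reads in low-a and low-b, against 1996 and 3391 in high-a and high-b. In each of these 3 genes high-a was the lowest library and high-b the highest or second, so the groups overlapped.

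Shared sequence can limit the separation of single genes in much of the family. The share of unique 50-base stretches ran from 0% to 100% over the 64 genes, and in 31 genes it was under 50%.

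H2B genes were led by Hist1h2bp, Hist1h2bl and Hist1h2bn. Hist1h2bp had 5967 and 5833 normalized reads in low-a and low-b, against 3827 and 6368 in high-a and high-b. Hist1h2bl had 5661 and 4660 normalized reads in low-a and low-b, against 3190 and 5562 in high-a and high-b. Hist1h2bn had 4367 and 3884 normalized reads in low-a and low-b, against 2574 and 4501 in high-a and high-b. The groups overlapped in all 3, and the authors' deposited table puts their log2 fold changes between -0.24 and -0.21. Hist1h2bc, 1 of the 3 histone genes with an unadjusted p under 0.05, had 1224 and 813 normalized reads in low-a and low-b, against 504 and 851 in high-a and high-b. The groups overlapped, and its log2 fold change in the authors' deposited table was -0.59 ± 0.30 (SE; unadjusted DESeq2 p 0.0462, adjusted p 0.557). Hist1h2bf had the lowest fold change of the type, with 110 and 103 normalized reads in low-a and low-b, against 48.3 and 64.0 in high-a and high-b, and no overlap of the groups. In the authors' deposited table its log2 fold change was -0.93 ± 0.50 (SE; DESeq2 adjusted p 0.631). Hist1h2bg had the highest, with 118 and 159 normalized reads in low-a and low-b, against 127 and 238 in high-a and high-b, and a log2 fold change of 0.38 ± 0.43 (SE; DESeq2 adjusted p 0.979) in the authors' deposited table.

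H3 genes had a median near 0. Hist1h3h had 5675 and 5135 normalized reads in low-a and low-b, against 3955 and 6564 in high-a and high-b. Hist1h3i had 4049 and 3584 normalized reads in low-a and low-b, against 2565 and 4121 in high-a and high-b. Hist1h3g had 3508 and 2653 normalized reads in low-a and low-b, against 2211 and 3505 in high-a and high-b. In all 3 the high-a library was the lowest and the groups overlapped. Hist1h3d had the lowest p of the family, with 651 and 330 normalized reads in low-a and low-b, against 640 and 915 in high-a and high-b. Its low-a library lay above high-a, so the groups overlapped, and its log2 fold change in the authors' deposited table was 0.66 ± 0.33 (SE; unadjusted DESeq2 p 0.0419, adjusted p 0.535). The lowest fold change of the type among genes with a mean of at least 50 was that of Hist1h3i, at -0.19 ± 0.24 (SE) in the authors' deposited table.

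**Figure D5:**
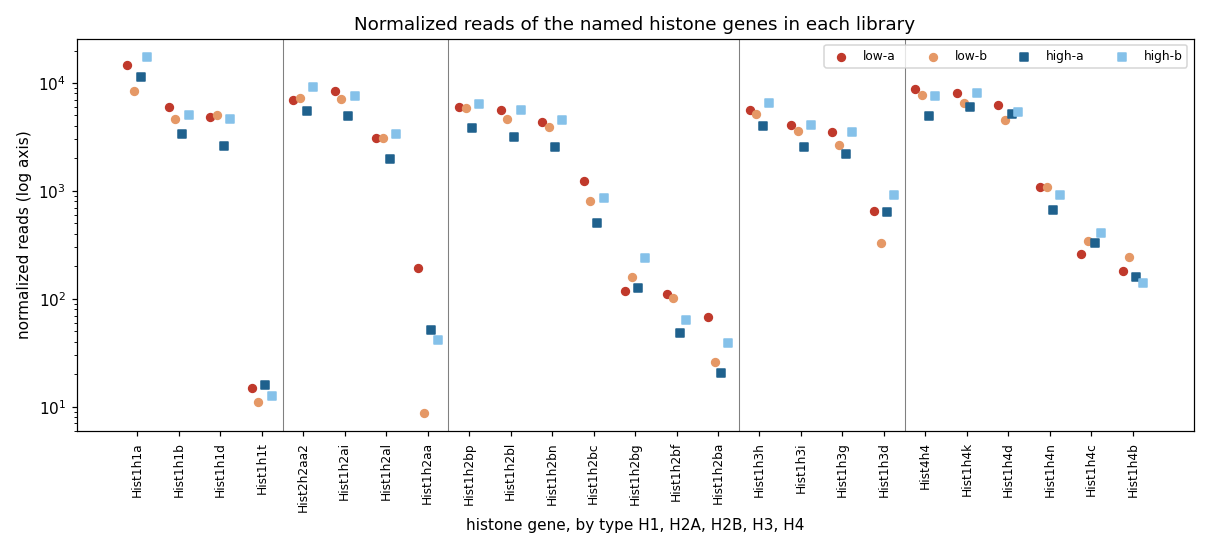
Normalized reads (y axis, log scale) of the named histone genes in each library (x axis, by type); circles are low-a and low-b, squares high-a and high-b. In most of the genes with over 1000 reads high-a is the lowest point.

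H4 genes include Hist1h4k, which had the most normalized reads per kilobase of annotated exon in the family, 22956. This ranking depends on the annotated length of each gene. Hist1h4k was the H4 gene without a stem-loop match in its annotated transcripts, whereas the transcript shown above for Hist4h4 has 2863 bases. H4 is the most conserved core histone and pairs with H3. Hist1h4k had 8103 and 6517 normalized reads in low-a and low-b, against 5944 and 8086 in high-a and high-b. Hist4h4, the only row of its cluster, had 8761 and 7749 normalized reads in low-a and low-b, against 4945 and 7621 in high-a and high-b, with no overlap of the groups. Its log2 fold change in the authors' deposited table was -0.39 ± 0.23 (SE; DESeq2 adjusted p 0.682). Hist1h4d had 6190 and 4534 normalized reads in low-a and low-b, against 5130 and 5412 in high-a and high-b. Unlike most of the family, its high-a and high-b values were close. Hist1h4n, the third gene with an unadjusted p under 0.05, had 1088 and 1090 normalized reads in low-a and low-b, against 664 and 911 in high-a and high-b, with no overlap. Its log2 fold change in the authors' deposited table was -0.47 ± 0.24 (SE; unadjusted DESeq2 p 0.0495, adjusted p 0.563), and 14.4% of its 50-base stretches are unique. Hist1h4b had the lowest fold change of the type, with 181 and 245 normalized reads in low-a and low-b, against 158 and 141 in high-a and high-b, and Hist1h4c the highest, with 259 and 342 in low-a and low-b, against 328 and 408 in high-a and high-b. The authors' deposited table gives log2 fold changes of -0.51 ± 0.37 for Hist1h4b and 0.29 ± 0.31 for Hist1h4c (SE).

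The testis types of the family had few reads, which was not particular to them. Their mean normalized reads were 13.6 for Hist1h1t, 38.3 for Hist1h2ba and 73.8 for Hist1h2aa. A mean under 50 normalized reads was found for 11 members, Hist1h1t and Hist1h2ba among them but not Hist1h2aa. The 11 also include Hist2h2be at 6.29 and Hist3h2a at 2.33, which are not testis types. Hist1h1t, the testis linker histone H1t, had 12 and 9 reads in low-a and low-b, against 31 and 10 in high-a and high-b. Hist1h2ba, the testis H2B, had 55 and 21 reads in low-a and low-b, against 40 and 31 in high-a and high-b. Hist1h2aa, the testis H2A, had 157 and 7 reads in low-a and low-b, against 101 and 33 in high-a and high-b. High-a has more reads in all than the other libraries, so these counts are to be read beside the totals. Hist1h2aa had the lowest log2 fold change of the tested histone genes in the authors' deposited table, -1.12 ± 1.66 (SE; DESeq2 adjusted p 0.989). This rested on low-a, and without low-a the value was 2.43 ± 2.09 (SE) in the refit.

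The list of histone transcription and pre-mRNA processing had 25 of 26 genes tested. The authors' deposited table called 0 of them, near the 1.53% called over all tested genes, and lists 1 at an unadjusted p under 0.05, against 8.82% of all. Npat, the coactivator of histone gene transcription, had 1872 and 1647 normalized reads in low-a and low-b, against 1872 and 1949 in high-a and high-b. Slbp, which binds the stem-loop shown above, had 2646 and 1808 normalized reads in low-a and low-b, against 2559 and 2518 in high-a and high-b. The authors' deposited table gives log2 fold changes of 0.12 ± 0.20 for Npat and 0.19 ± 0.23 for Slbp (SE). Casp8ap2, a partner of NPAT, and the U7 subunit genes Lsm10 and Lsm11 had log2 fold changes of 0.13 ± 0.19, 0.00 ± 0.35 and -0.13 ± 0.31 (SE) in the authors' deposited table. Cstf2t, of the cleavage machinery, reached an unadjusted DESeq2 p of 0.032 (adjusted p 0.476) at 0.43 ± 0.20 (SE) in the authors' deposited table.

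In the lists of turnover, chaperones, variants, S phase, and G2 and M phase the authors' deposited table also called 0 genes, which for lists of 10 to 32 genes is near the 1.53% called over all tested genes. It lists 1, 2, 1, 1 and 1 of them at an unadjusted p under 0.05, against 8.82% of all. Among 10 tested genes of histone mRNA turnover, Xrn1, a 5′ exonuclease, had 1579 and 1289 normalized reads in low-a and low-b, against 2152 and 2155 in high-a and high-b, with an adjusted DESeq2 p of 0.163 in the authors' deposited table. Of 20 genes of histone chaperones and acetylation, Rbbp7, a histone-binding subunit, had 5545 and 8288 normalized reads in low-a and low-b, against 3762 and 4619 in high-a and high-b, with an adjusted DESeq2 p of 0.0768 in the authors' deposited table. For Ipo4, an importin of histones, the authors' deposited table gives a log2 fold change of -0.55 ± 0.22 (SE), and for Nasp, an H3-H4 chaperone, 0.14 ± 0.19 (SE). Of 11 replication-independent variants, H2afz, which encodes H2A.Z, had 9124 and 9954 normalized reads in low-a and low-b, against 6760 and 6673 in high-a and high-b. The groups did not overlap, and its log2 fold change in the authors' deposited table was -0.51 ± 0.18 (SE; DESeq2 adjusted p 0.157). Of 32 S phase genes Mcm6, a helicase subunit, reached an unadjusted DESeq2 p of 0.0389 and of 14 genes of G2 and M phase Top2a, a topoisomerase, one of 0.00356 in the authors' deposited table, with log2 fold changes of 0.39 ± 0.19 and 0.54 ± 0.19 (SE).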

How the data were processed

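Total RNA depleted of ribosomal RNA was sequenced strand-specifically, as the labels' protocols say. Per the submitters' processing notes the authors used TopHat2, mm9, HTSeq and DESeq2 1.8.2, in an order not stated. Whether counting used strand is not stated, so overlapping and antisense genes could share reads. Per the file headers, the deposited table gives a mean normalized read count (a signal), a log2 fold change with its log2 standard error, a Wald statistic (a score), a p-value and an adjusted p-value, all made by the authors. It holds no column per library.

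Whole counts per library were recovered here from the deposited means. Each mean is a sum of 4 counts times fixed steps. The deposited fold change chose among combinations that fit to 15 significant digits. It had to be met within 0.00001, with the next at least 10 times worse, or within 0.001 for a single combination. A single combination was also taken without this condition where a library had no reads or the mean was under 3. Counts served for descriptions and alternatives, which were the refit at the dispersion implied by each deposited error and limma 3.58.1 voom. Recovery and tests were tested on simulated data. Depth was 10616817 to 26720127 reads, and 3 reads are 1.54 normalized reads in high-a and 3.70 to 3.76 in the others. Gene names came from GENCODE vM21, which matched 19707 of 19840 rows. Uniqueness counted 50-base stretches of transcripts found in no other gene.

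Named genes were, per type, the 3 highest means, the highest and lowest fold change at a mean of at least 50, members with an unadjusted p under 0.05, and the testis types. Of the other lists, genes with an unadjusted p under 0.05 were named, with 6 named in any case. The members and lists were chosen with earlier results of these data known. The 1.2-fold used between libraries of one group was chosen after the data were seen, in place of a slightly larger fold tried first.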

Additional observations from a re-analysis of the deposited data

How the results depend on the processing

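No histone gene was called at an adjusted p under 0.05 with the unfiltered table, limma voom, or scaling by library totals or by TMM factors. Of all 14043 genes, voom called 6, library totals 236 and TMM factors 196. With so few calls among all genes, 0 calls among 61 histone genes do not set the family apart. The lowest adjusted p of a histone gene was 0.431 with voom, 0.479 with library totals and 0.503 with TMM factors. The median log2 fold change was -0.19 in the authors' deposited table, -0.23 with voom, -0.22 with library totals, -0.17 with TMM factors, and ran from -0.48 (without high-b) to 0.09 (without high-a) when 1 library was left out. It was -0.09 for members with at least 50% unique stretches, a choice made after the data were seen. The histone share, Lncenc1-low minus Lncenc1-high, was 0.102 percentage points, 0.122 without Hist1h1a, and ran from -0.0825 (without high-a) to 0.287 (without high-b), also chosen after the data were seen. Over 25 named genes and 7 alternatives, 25 of 175 values turned sign and no call changed; 10 genes kept their sign throughout. Leaving out 1 library gave these ranges of the log2 fold change: Hist1h1a -0.035 to 0.77, Hist1h1t -0.048 to 0.36, Hist1h2aa -2.05 to 2.43, Hist1h2al -0.62 to 0.15, Hist1h2ba -1.21 to 0.18, Hist1h2bg -0.13 to 0.78, Hist1h2bl -0.69 to 0.11, Hist1h2bn -0.68 to 0.13, Hist1h2bp -0.62 to 0.11, Hist1h3g -0.48 to 0.19, Hist1h3h -0.45 to 0.28, Hist1h3i -0.57 to 0.11, Hist1h4d -0.23 to 0.22, Hist1h4k -0.30 to 0.15 and Hist2h2aa2 -0.39 to 0.35. Voom turned the sign of Hist1h2aa (0.21), Hist1h4d (0.0094) and Hist2h2aa2 (-0.014), and library totals that of Hist2h2aa2 (-0.0098); the cause was not tested. No paired analysis was possible because the deposited table has no column per library that carries a replicate number. The median standard error of the log2 fold change was 0.268 for the tested histone genes in the authors' deposited table.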

Other observations

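Within the H3 genes, Hist1h3d made up 2.65% and 1.63% of H3 reads in low-a and low-b, against 3.76% and 3.41% in high-a and high-b. Within the H4 genes, Hist4h4 made up 21.1% and 21.9% of H4 reads in low-a and low-b, against 17.2% and 19.2% in high-a and high-b. Within the H2A genes, Hist2h2aa2 made up 24.2% and 28.7% of H2A reads in low-a and low-b, against 30.2% and 31.6% in high-a and high-b. The genes were chosen after their values were seen, from 30 of the 64 whose groups did not overlap on this scale, 15 in each direction. With 2 against 2 libraries, such a lack of overlap has an exact two-sided permutation p of 0.333.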
